A study of Mus musculus with 9 samples.

Results

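The genes of the MHC class II antigen presentation pathway and their transcriptional activator were followed in lymphatic endothelial cells sorted from mouse livers. The set has 7 members, Ciita, H2-Aa, H2-Ab1, H2-Eb1, Cd74, H2-DMa and H2-DMb1, taken by symbol from the 21936 genes of the table, and each symbol matched 1 row. RNA was sequenced from mice at 4 weeks after bile duct ligation (BDL), at 2 weeks after BDL and after a sham operation, with 3 mice in each group. BDL is a surgical model of cholestasis in which the bile duct is tied off and bile collects in the liver. Mice of all 3 groups carried the IL7-GFP knock-in, in which green fluorescent protein made from the Il7 locus marks lymphatic endothelium. The sorting gate, the strain background, sex and age of the mice, and the time between sham surgery and collection are not stated in the labels.

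Class II molecules are pairs of an alpha and a beta chain that carry peptides from endosomes to the cell surface, where CD4+ T cells read them. H2-Aa and H2-Ab1 encode the chains of the I-A molecule, and H2-Eb1 encodes the beta chain of I-E. Cd74 encodes the invariant chain that fills the groove until the molecule reaches the endosome, and H2-DMa and H2-DMb1 encode the chains of H2-DM, which exchanges the last piece of the invariant chain for a peptide. CIITA, the product of Ciita, does not bind DNA itself. It is recruited by RFX, CREB and NF-Y proteins bound side by side upstream of class II genes, and its amount largely sets class II transcription. Dendritic cells, macrophages and B cells make it constitutively or on activation, while endothelial cells, lymphatic endothelium among them, make it mainly under interferon-gamma. The table gives 1 value per gene, so that use of the alternative Ciita promoters was not analysed here.

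The arrangement that recruits CIITA can be read upstream of several class II genes. The RefSeq promoter table (GRCm38.p6) held 4 of the 7 members, H2-Aa, H2-Eb1, H2-DMa and H2-DMb1. Ciita, H2-Ab1 and Cd74 had no entry. Windows of 130 bases that end just before the annotated start are shown for H2-Aa and H2-Eb1, chosen because both passed as lower at 4 weeks of BDL, and for H2-Ob, a class II gene with under 11 normalized counts in every library. They lie at chr17:34287824-34287953 on the minus strand for H2-Aa, at chr17:34305737-34305866 on the plus strand for H2-Eb1 and at chr17:34238775-34238904 on the plus strand for H2-Ob. Capitals mark GNAAC, the letters used for the core of the X box that RFX binds, and ATTGG, the letters of the Y box that NF-Y binds.
H2-Aa: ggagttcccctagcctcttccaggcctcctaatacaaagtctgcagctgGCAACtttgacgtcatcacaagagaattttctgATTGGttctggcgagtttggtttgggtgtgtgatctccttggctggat
H2-Eb1: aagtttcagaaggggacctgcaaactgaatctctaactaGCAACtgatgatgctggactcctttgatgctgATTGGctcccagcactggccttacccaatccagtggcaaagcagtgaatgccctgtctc
H2-Ob: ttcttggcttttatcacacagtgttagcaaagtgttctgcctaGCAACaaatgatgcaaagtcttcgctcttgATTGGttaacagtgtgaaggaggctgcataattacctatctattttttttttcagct
In these windows the capitals were 28, 27 and 25 bases apart, in the order given. The pair, GNAAC followed by ATTGG with 25 to 28 bases between them, was searched on both strands of the 250 bases before each start. That spacing was set after the class II windows had been read. It was present in 193 of 32851 windows of the genome, or 0.59%, while GNAAC alone was in 79.58% and ATTGG alone in 33.85%. Of the members in the table H2-Aa, H2-Eb1 and H2-DMb1 held the pair and neither window of H2-DMa did. The H2-DMa windows end at chr17:34122831 and chr17:34125517, inside the annotated gene, which runs to chr17:34139101. Any other start of H2-DMa was not searched. Of the other class II genes H2-Oa, H2-Ob and H2-Eb2 held it and H2-DMb2 did not. A match describes the letters and no binding was measured.

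The depth behind the values was unequal. Whole reads recovered from the normalized counts numbered 4399759, 3010049 and 2259239 at 4 weeks, 5314381, 4450196 and 4366401 at 2 weeks and 3324445, 592419 and 3717921 in sham mice, in replicate order. Sham replicate 2 was both the shallowest library and the one least like the others, with a median correlation of 0.774 across genes, against 0.888 to 0.928 for the other 8. Prox1, Flt4, Lyve1, Reln and Mmrn1, which define lymphatic endothelium, were detected in all 9 libraries, whereas Ccl21a had 1 read in all. Genes of hepatocytes, fibroblasts and macrophages were also present. The hepatocyte list summed to 873 to 13671 normalized counts at 4 weeks, 2473 to 6447 at 2 weeks and 911 to 11477 in sham. That of stellate cells and fibroblasts summed to 768 to 2765 at 4 weeks, 1020 to 3577 at 2 weeks and 136 to 794 in sham. The summed level of 12 Kupffer cell and macrophage markers was 11206 to 28391 normalized counts at 4 weeks, 28957 to 67472 at 2 weeks and 26076 to 66625 in sham. Within sham the highest of these sums, 66625, was that of replicate 2. The lymphatic markers filled 11 rows, as Ccl21a has more than 1. Their summed level was 24668 to 45070, 15025 to 45017 and 5788 to 42538 normalized counts in the same order of groups, lowest in sham replicate 2. In bulk libraries fewer cells of a type and less RNA per cell cannot be told apart.

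Ciita was the member with the clearest difference between groups. Its 3 libraries at 4 weeks had 40.0, 47.5 and 17.2 normalized counts. Those at 2 weeks had 144.4, 78.4 and 96.8, and those of sham mice had 213.7, 283.9 and 306.1. The 3 groups did not overlap at any point, every 4-week library lying below every 2-week library and every 2-week library below every sham library. These values rest on 51, 53 and 14 reads at 4 weeks, 245, 120 and 143 reads at 2 weeks and 233, 54 and 393 reads in sham. Ciita averaged 34.9 ± 15.8 at 4 weeks, 106.5 ± 34.1 at 2 weeks and 268 ± 48.2 in sham (SD, n = 3 each). At 4 weeks it was 8.03-fold lower than in sham, a log2 fold change of -3.01 ± 0.39 (SE; 95% interval -3.87 to -2.14) with an adjusted p of 0.0105 in limma, and it stood 18th by p among the 11809 genes tested. It kept an adjusted p below 0.05 in 21 of 22 alternative analyses, where the log2 fold change ran between -3.28 and -2.38. The exception, added after seeing the data, had the mean log2 level of the 12 macrophage markers as a covariate, with -2.38 and an adjusted p of 0.0726 in limma.

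**Figure D1:**
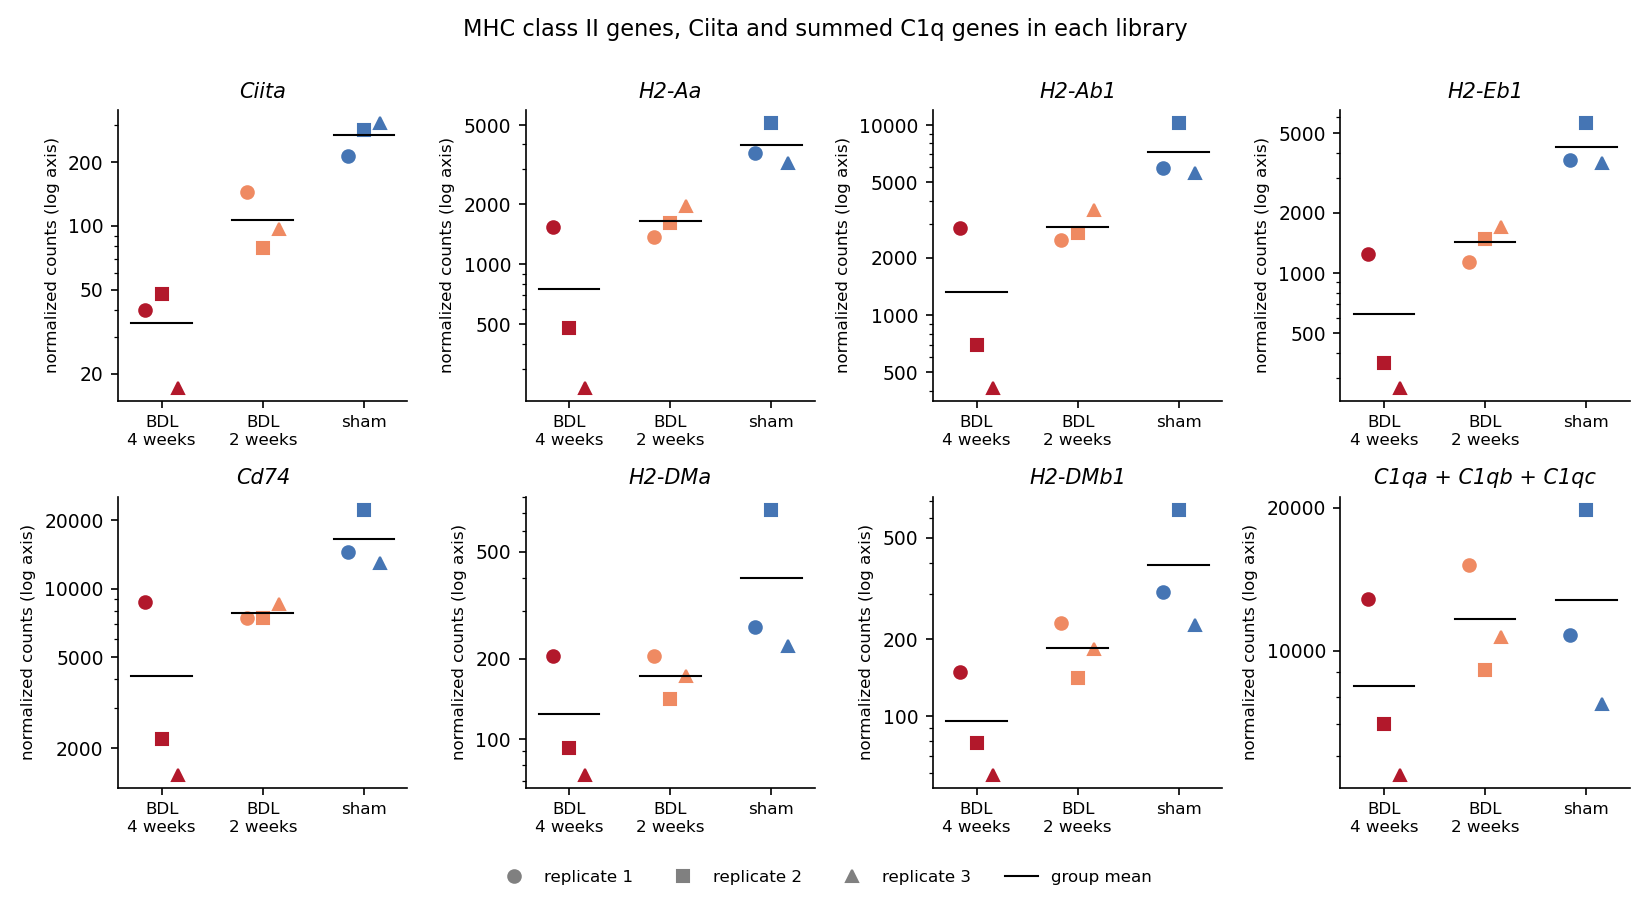
Normalized counts of the 7 members in each library, on log axes, for BDL 4 weeks, BDL 2 weeks and sham (3 libraries each, marker shape giving the replicate number, bars the group means). The Ciita points form 3 separate groups, whereas in the panels of the chains and Cd74 the first 4-week library lies at the level of the 2-week libraries.

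Both chains of I-A and the beta chain of I-E lay lower in BDL than in sham, with a wide spread between the libraries at 4 weeks. No row was found for the alpha chain of I-E, searched as H2-Ea and H2-Ea-ps. H2-Eb1 had 1249, 356 and 268 normalized counts at 4 weeks, 1141, 1476 and 1698 at 2 weeks and 3674, 5609 and 3536 in sham. H2-Aa had 1542, 483 and 241 at 4 weeks, 1376, 1617 and 1956 at 2 weeks and 3615, 5115 and 3248 in sham. H2-Ab1 had 2863, 700.2 and 416 at 4 weeks, 2479, 2695 and 3554 at 2 weeks and 5908, 10220 and 5624 in sham. In all of these the BDL libraries lay below the sham libraries, and 4-week replicate 1 lay at the level of the 2-week libraries while replicates 2 and 3 lay under them. H2-Eb1 and H2-Aa passed the test at 4 weeks against sham, with log2 fold changes of -3.08 ± 0.50 (adjusted p = 0.0219) and -2.79 ± 0.55 (adjusted p = 0.0450) in limma. H2-Ab1, which encodes the partner chain of H2-Aa, had a log2 fold change of -2.89 ± 0.60 and an adjusted p of 0.0535 in limma, just outside the threshold. The chains moved together from library to library: H2-Aa was 0.501 to 0.689 of H2-Ab1 in all 9 libraries.

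The call of H2-Aa was lost with most single libraries left out. Its adjusted p in limma was 0.00696 without 4-week replicate 1 and rose above 0.05 when any other library was left out. It was then 0.139 and 0.135 without 4-week replicates 2 and 3, 0.0741, 0.0782 and 0.0773 without 2-week replicates 1, 2 and 3, and 0.106, 0.0856 and 0.0852 without sham replicates 1, 2 and 3. The log2 fold change stayed between -3.52 and -2.18 in these analyses. H2-Eb1 lost its call without 4-week replicate 2 (adjusted p = 0.0900), 4-week replicate 3 (0.0963), sham replicate 1 (0.0590) or sham replicate 3 (0.0548) and kept it when any of the other 5 libraries was left out. H2-Eb1 had an adjusted p of 0.0364 in edgeR and H2-Aa one of 0.0700. Of the 4 members that did not pass, 3 passed without 4-week replicate 1, with adjusted p-values in limma of 0.00696 for H2-Ab1, 0.00696 for Cd74 and 0.0487 for H2-DMb1. That of H2-DMa was 0.0856.

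Cd74, the invariant chain, was the most abundant member per length of exon. It had 8740, 2190 and 1532 normalized counts at 4 weeks, 7458, 7449 and 8610 at 2 weeks and 14555, 22091 and 12931 in sham. The libraries of both BDL times lay below those of sham, with 4-week replicate 1 just above the libraries at 2 weeks. At 4 weeks against sham the log2 fold change was -2.38 ± 0.57 with an adjusted p of 0.0828 in limma, which did not pass. Per kilobase of exon, the mean normalized count of sham libraries was 9842 for Cd74, 2824 for H2-Ab1, 2198 for H2-Eb1, 1051 for H2-Aa, 233 for H2-DMb1, 116 for H2-DMa and 28.1 for Ciita. The same order of means held at 4 weeks, with 2474 for Cd74 and 3.66 for Ciita, and at 2 weeks, with 4669 and 11.2. In sham the SDs were 2911 for Cd74, 1003 for H2-Ab1, 596 for H2-Eb1, 260 for H2-Aa, 131 for H2-DMb1, 79.2 for H2-DMa and 5.06 for Ciita (n = 3). This spread is between libraries that the genes share, and within a library each member of that order lay above the next in 9 of 9 libraries. Per kilobase H2-Ab1 was 1.17 to 1.74 times H2-Eb1, and H2-DMb1 was 1.499 to 2.38 times H2-DMa. The order rests on the exon lengths used, such as 3448 bases for H2-DMa and 1681 for H2-DMb1. Undivided means at 4 weeks ran the other way for H2-Aa (755) and H2-Eb1 (624), and for H2-DMa (124) and H2-DMb1 (95.7). At 2 weeks only the H2-Aa and H2-Eb1 means were so reversed, and in sham only those of H2-DMa and H2-DMb1. The order is a description of these libraries, and the separate uncertainties of the H2-DM counts are given with their positions.

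The peptide exchange chains had smaller log2 fold changes than the chains they act on. H2-DMa had 204, 93.1 and 73.8 normalized counts at 4 weeks, 204, 142 and 173 at 2 weeks and 263, 715 and 224 in sham. H2-DMb1 had 149, 78.8 and 59.1 at 4 weeks, 232, 141 and 183 at 2 weeks and 305, 641 and 227 in sham. In both genes sham replicate 2 was well above the other sham libraries, and without it the sham means were 243 for H2-DMa and 266 for H2-DMb1. That library was the shallowest of all and had the highest macrophage sum in sham. The log2 fold changes at 4 weeks against sham were -1.63 ± 0.48 for H2-DMa (adjusted p = 0.161) and -1.99 ± 0.44 for H2-DMb1 (adjusted p = 0.0635) in limma, and neither passed. Without sham replicate 2 they were -1.11 and -1.56. H2-DMa per H2-Ab1 was 0.0713, 0.133 and 0.178 at 4 weeks, 0.0823, 0.0526 and 0.0486 at 2 weeks and 0.0445, 0.0700 and 0.0397 in sham. At 4 weeks against sham this ratio was higher without overlap. The two-sided exact permutation p was 0.1, the smallest that 3 against 3 can give, and 0.375 adjusted over 15 tests of ratios to H2-Ab1. Only 0.466% of tested genes had a log2 fold change as low as that of H2-Ab1, so nearly any gene tends to be higher relative to it. The share of all tested genes with such a ratio was not counted, so the ratio does not set H2-DMa apart.

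**Figure D2:**
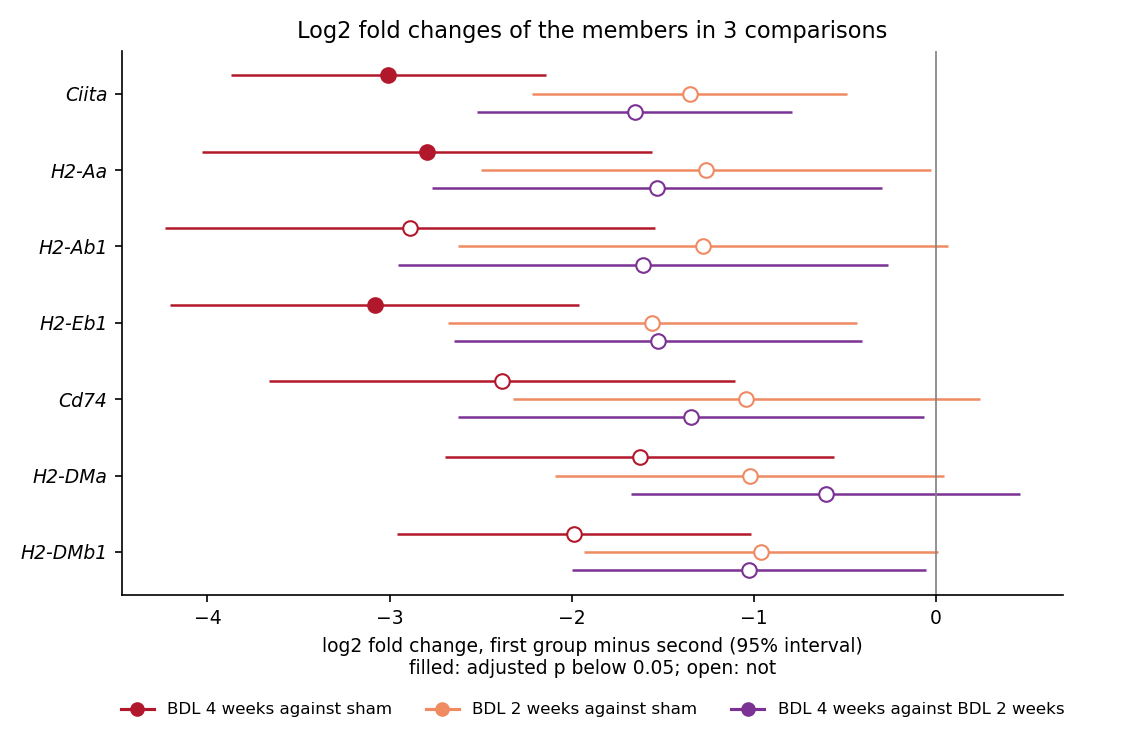
Log2 fold changes of the 7 members with 95% intervals from limma, for BDL 4 weeks against sham, BDL 2 weeks against sham and BDL 4 weeks against BDL 2 weeks; filled points had an adjusted p below 0.05. At 4 weeks against sham all 7 lay between -3.08 and -1.63, with Ciita, H2-Aa and H2-Eb1 filled.

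Counted together, 3 of the 7 members passed as lower at 4 weeks against sham, where 0.669% of the 11809 tested genes did. In all 7 the libraries of the groups did not overlap, BDL 4 weeks lying lower, as was so for 8.39% of the tested genes. The members' median log2 fold change was -2.79, against 0.07 over all tested genes. Without sham replicate 2, the library that stood apart, 2 members passed, and without both it and 4-week replicate 1 all 7 did. Without 4-week replicate 1 alone 6 passed. Without 4-week replicate 2 or 3, or sham replicate 1 or 3, 1 passed, Ciita, and without any 1 of the 2-week libraries 2 passed. With the mean level of the 12 macrophage markers as a covariate 0 of 7 passed in limma, against 73 of all genes. The p-values measure the spread between mice handled in this experiment.

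At 2 weeks the members lay lower as well, but none passed. The log2 fold changes against sham were -1.56 for H2-Eb1, -1.35 for Ciita, -1.28 for H2-Ab1, -1.26 for H2-Aa, -1.04 for Cd74, -1.02 for H2-DMa and -0.96 for H2-DMb1. The smallest adjusted p in limma was 0.338, for Ciita, with a 95% interval of the log2 fold change from -2.22 to -0.49. In limma 0 of 7 passed, and of all tested genes 2, or 0.0169%, did, both higher. At an unadjusted p below 0.05 the count was 3 members and 1010 of all tested genes in limma, 5 and 1080 in edgeR, and 7 and 1193 in DESeq2. After adjustment edgeR called 0 members and 2 genes, and DESeq2 called 1 member, Ciita (adjusted p = 0.0342), and 211 genes. In 6 of 7 members, H2-DMb1 being the exception, the libraries did not overlap and BDL 2 weeks was lower, as in 7.71% of tested genes. The median of the members was -1.26, against 0.07 over all tested genes. This comparison and that of 4 weeks against sham share the same sham libraries.

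Between the BDL times, Ciita was again the member with separate groups. Its log2 fold change at 4 weeks against 2 weeks was -1.65 (95% interval -2.52 to -0.79) with an adjusted p of 0.493 in limma, so the difference did not pass. The libraries did not overlap in 1 of 7 members, Ciita, with BDL 4 weeks lower, as in 5.06% of tested genes. The other log2 fold changes were -1.61 for H2-Ab1, -1.53 for H2-Aa and for H2-Eb1, -1.34 for Cd74, -1.03 for H2-DMb1 and -0.60 for H2-DMa, with 4-week replicate 1 overlapping the 2-week libraries in all of them. Limma and edgeR called 0 of the 11809 genes after adjustment, at 475 and 547 with an unadjusted p below 0.05, of which 6 and 2 were members. DESeq2 called 76 genes, and Ciita was the 1 member among them (adjusted p = 0.0206).

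Among the factors that dock CIITA on class II promoters no gene passed. Of the 7 genes of RFX, NF-Y and CREB, all tested, 3 were below and 4 above 0 at 4 weeks against sham, where 44.8% of all tested genes were below 0, with a median log2 fold change of 0.03, and 0 passed in any of the 3 comparisons. Nfya, an NF-Y subunit, averaged 237.5 ± 18.2 normalized counts at 4 weeks, 201.4 ± 64.0 at 2 weeks and 277 ± 28.4 in sham (SD, n = 3 each). Creb1 averaged 262 ± 43.8, 291.3 ± 20.9 and 278 ± 131 in the same order, and Nfyc, another NF-Y subunit, averaged 94.9 ± 28.2, 96.3 ± 12.4 and 115 ± 23.5. Their log2 fold changes at 4 weeks against sham were -0.22 for Nfya, 0.03 for Creb1 and -0.30 for Nfyc.

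Of the interferon-gamma route to Ciita, 7 genes are described here, from the receptor and its kinases to factors that act on the inducible Ciita promoter. At 4 weeks against sham 5 of these were below 0, the median log2 fold change was -0.21 and 0 passed in limma. Irf1, a transcription factor that acts on the inducible Ciita promoter, averaged 1025 ± 599 at 4 weeks, 1516 ± 102 at 2 weeks and 2014 ± 485 in sham (log2 fold change at 4 weeks -1.09, adjusted p = 0.220). Jak1, the receptor's kinase, averaged 1503, 1555 and 1573 normalized counts in the same order, and the receptor chain Ifngr1 averaged 708, 838 and 573. Ifng itself, the cytokine, had 4 reads in all and 0 in 7 of the libraries.

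Other genes around Ciita gave no call. Of 6 tested regulators of Ciita in leukocytes, all 6 were below 0 at 4 weeks against sham, where 44.8% of all tested genes were. Their median log2 fold change was -0.55 and 0 passed. The list includes genes that lower Ciita, so this count and median have no single direction for it. Tgfbr2, a receptor of TGF-beta, which lowers Ciita, averaged 1426 at 4 weeks, 1393 at 2 weeks and 2090 in sham. Irf8, a factor of myeloid cells, averaged 545, 723 and 1129, and Prdm1, a repressor of Ciita in plasma cells, averaged 474, 443 and 519. Of 4 tested CIITA-responsive genes outside class II, 2 were below 0 and 0 passed. Nlrc5, a relative of CIITA that activates MHC class I genes, averaged 188 ± 28.2 at 4 weeks, 337 ± 117 at 2 weeks and 496 ± 73.6 in sham, with a log2 fold change of -1.39 at 4 weeks and an adjusted p of 0.0535 in limma. The others with the highest means, Tpp1, a lysosomal peptidase, and Plxna1, a semaphorin receptor, had log2 fold changes of 0.09 and -0.47.

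Endosomal genes that serve class II molecules lay on both sides of 0. Of 12 tested, 6 were below and 6 above 0 at 4 weeks against sham, the median log2 fold change was 0.14 and 0 passed. Ctsb, a cathepsin, had a log2 fold change of -0.02. Ctss, the cathepsin that trims the invariant chain, averaged 7915 at 4 weeks, 7991 at 2 weeks and 5737 in sham, and Lgmn, an endosomal protease, averaged 6064, 6641 and 4643. Of 6 tested genes of costimulation, the second signal to T cells, 5 were below 0 and 0 passed, with a median of -0.998. Cd83 averaged 1951 ± 1430 at 4 weeks, 2409 ± 712 at 2 weeks and 3232 ± 341 in sham, and the log2 fold changes of Cd274, an inhibitory ligand, and of Cd86 were -1.04 and -1.12. In the comparisons of 2 weeks against sham and of 4 weeks against 2 weeks, 0 genes of any of these lists passed in limma. Of the class II genes beyond the members, H2-DMb2 was the 1 tested, at -0.81 at 4 weeks against sham. H2-Ob was under 11 normalized counts in every library, and H2-Oa and H2-Eb2 were also below the mean required for testing.

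**Figure D3:**
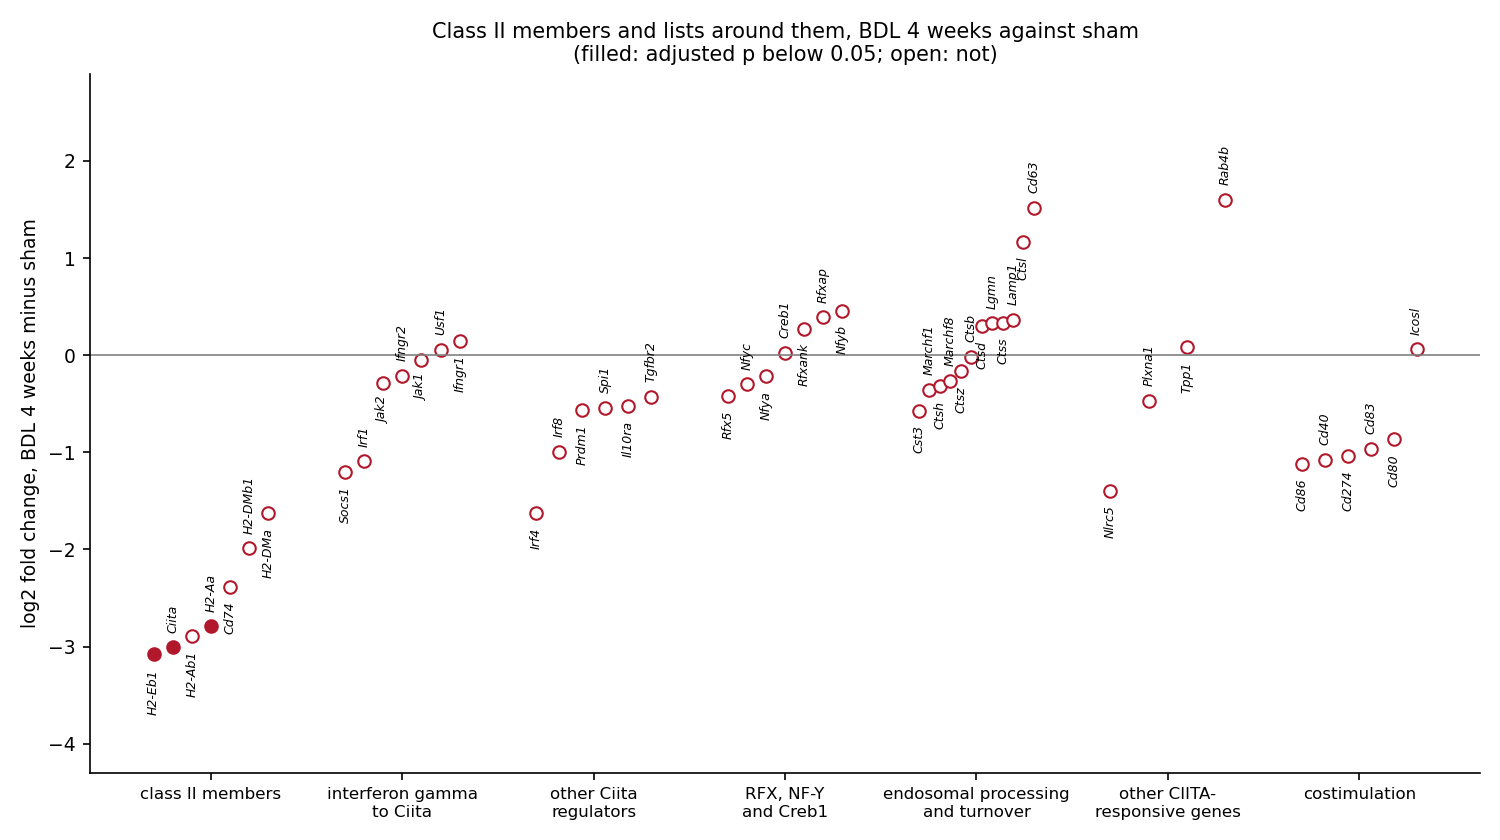
Log2 fold changes at BDL 4 weeks against sham of the members and of the tested genes of each pathway list, 1 point per gene; filled points had an adjusted p below 0.05. The members lie around -2.79, and the lists of docking factors and endosomal genes centre near 0.

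Class II genes are also made by leukocytes, so their markers were read in the same libraries. Of 12 Kupffer cell and macrophage markers 11 were below 0 at 4 weeks against sham, and Clec4f and Timd4, receptors of resident Kupffer cells, passed as lower with log2 fold changes of -3.30 and -4.02. At 2 weeks 7 of the 12 were below 0, as were 44.4% of all tested genes, and 0 passed in limma. The dendritic cell markers summed to 361 to 447 normalized counts at 4 weeks, 316 to 453 at 2 weeks and 457 to 524 in sham. Of 6 tested genes 0 passed, and 5 were below 0 at 4 weeks against sham, where 44.8% of all tested genes were. Batf3 (-2.20) and Ccr7 (-1.63) were lower without overlap, as were 8.39% of tested genes. Itgax, with the highest mean of the list, was above 0 (0.81) and weighs most in the sum at 4 weeks. Cd209a was at 0 in 7 libraries, Siglech in 3 and Flt3 in 2. The B cell list summed to 81.6 to 97.2, 86.6 to 154 and 173 to 202 in the same order. Cd22, a lectin of B cells, made up most of it except in 4-week replicate 3, with 44.3 of 97.2. Cd22 passed as lower at 4 weeks (log2 fold change -1.47, adjusted p = 0.0428 in limma). The 7 other genes were below the mean required for testing, and Ms4a1 had 13 reads in all. Of these, Pax5, Cd79a, Ms4a1, Fcrla, Cr2 and Blk had higher means at 4 weeks than in sham, and Cd79b a lower one. The T and NK cell list summed to 27.5 to 39.4, 34.0 to 48.1 and 116 to 157. Cd4, the co-receptor of class II, gave most of that sum at 2 weeks and in sham. Cd4 passed as lower at 4 weeks (log2 fold change -3.06, adjusted p = 0.0176 in limma). The 7 other genes were below the mean required for testing, and Cd3e had 13 reads in all. Cd3e, Cd3d, Cd3g, Klrb1c, Ncr1 and Ifng had higher means at 4 weeks than in sham, and Cd8a a lower one. Of the monocyte and neutrophil list Itgam, an integrin of myeloid cells, passed as higher at 4 weeks (2.89), as did 0.533% of tested genes, and of the liver sinusoidal list Fcgr2b, an Fc receptor, passed as higher (1.69) and Dnase1l3, a secreted nuclease, as lower (-2.83). The part of dendritic, B and T cells in the class II values was not tested.

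The outcome of setting the members against macrophage genes depended on the gene. They were first set against C1qa, C1qb and C1qc, the complement genes of tissue macrophages, in the same library, a comparison chosen after the values were seen. The C1q sum was 12813, 7007 and 5485 normalized counts at 4 weeks, 15174, 9101 and 10673 at 2 weeks and 10813, 19746 and 7729 in sham, and the groups overlapped. Per 100 of it, Ciita came to 0.312, 0.677 and 0.314 at 4 weeks, 0.952, 0.861 and 0.907 at 2 weeks and 1.98, 1.44 and 3.96 in sham. Again the 3 groups did not overlap. Cd74 came to 68.2, 31.3 and 27.9 at 4 weeks, 49.1, 81.9 and 80.7 at 2 weeks and 135, 112 and 167 in sham. H2-DMb1 came to 1.16, 1.12 and 1.08 at 4 weeks, 1.53, 1.55 and 1.72 at 2 weeks and 2.82, 3.25 and 2.94 in sham. The ratios of all 7 members were lower without overlap at 4 weeks against sham, as for 2.03% of tested genes, and at 2 weeks against sham, as for 5.08%. Between 4 and 2 weeks 2 of 7 were, Ciita and H2-DMb1, as for 1.03%. The C1q genes were among the macrophage markers with the smaller differences at 4 weeks against sham, with log2 fold changes of -0.66 to -0.55, whereas those of Clec4f, Timd4, Cd5l and Folr2 were -4.02 to -2.23. Taken marker by marker, all 7 ratios were lower without overlap at 4 weeks against sham for 6 of the 12 markers. These were C1qa, C1qb, C1qc, Marco, Cd163 and Mertk. For Vsig4 6 ratios were lower, for Adgre1 2, and for Clec4f, Timd4, Cd5l and Folr2 0. Among single markers the share of all tested genes was counted for Clec4f and Timd4 only. Whether the other counts are particular to the members was not tested. Per 100 of Clec4f, Ciita came to 2.31, 4.47 and 3.23 at 4 weeks, 1.216, 2.29 and 2.62 at 2 weeks and 2.13, 2.06 and 4.47 in sham, so that the groups overlapped. Per Clec4f 3 members were higher without overlap at 4 weeks against sham, as for 90.3% of tested genes, and per Timd4 6 were, as for 93.8%. Between 4 and 2 weeks 7 were higher per Timd4 and per Marco, 2 per Clec4f, Cd5l and Cd163, and 1 per Vsig4 and Folr2. In that comparison 2 were lower per C1qa, C1qb and C1qc, and 1 per Adgre1. At 2 weeks against sham 7 were lower per C1qa, C1qb, C1qc, Vsig4, Marco, Cd163 and Mertk. Per Cd5l 4 were, per Timd4 1, and per Clec4f, Adgre1 and Folr2 0. No share of all tested genes was counted for these. With the mean log2 level of the C1q genes as a covariate in limma, Ciita had a log2 fold change of -2.74 (adjusted p = 0.0106) at 4 weeks against sham and 5 members passed, the exceptions being Cd74 (adjusted p = 0.0573) and H2-DMa (adjusted p = 0.0533). With that of all 12 macrophage markers the log2 fold changes were -2.38 for Ciita, -2.03 for H2-Eb1, -1.54 for H2-Aa, -1.46 for H2-Ab1, -1.04 for Cd74, -0.68 for H2-DMb1 and -0.26 for H2-DMa, and 0 passed.

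**Figure D4:**
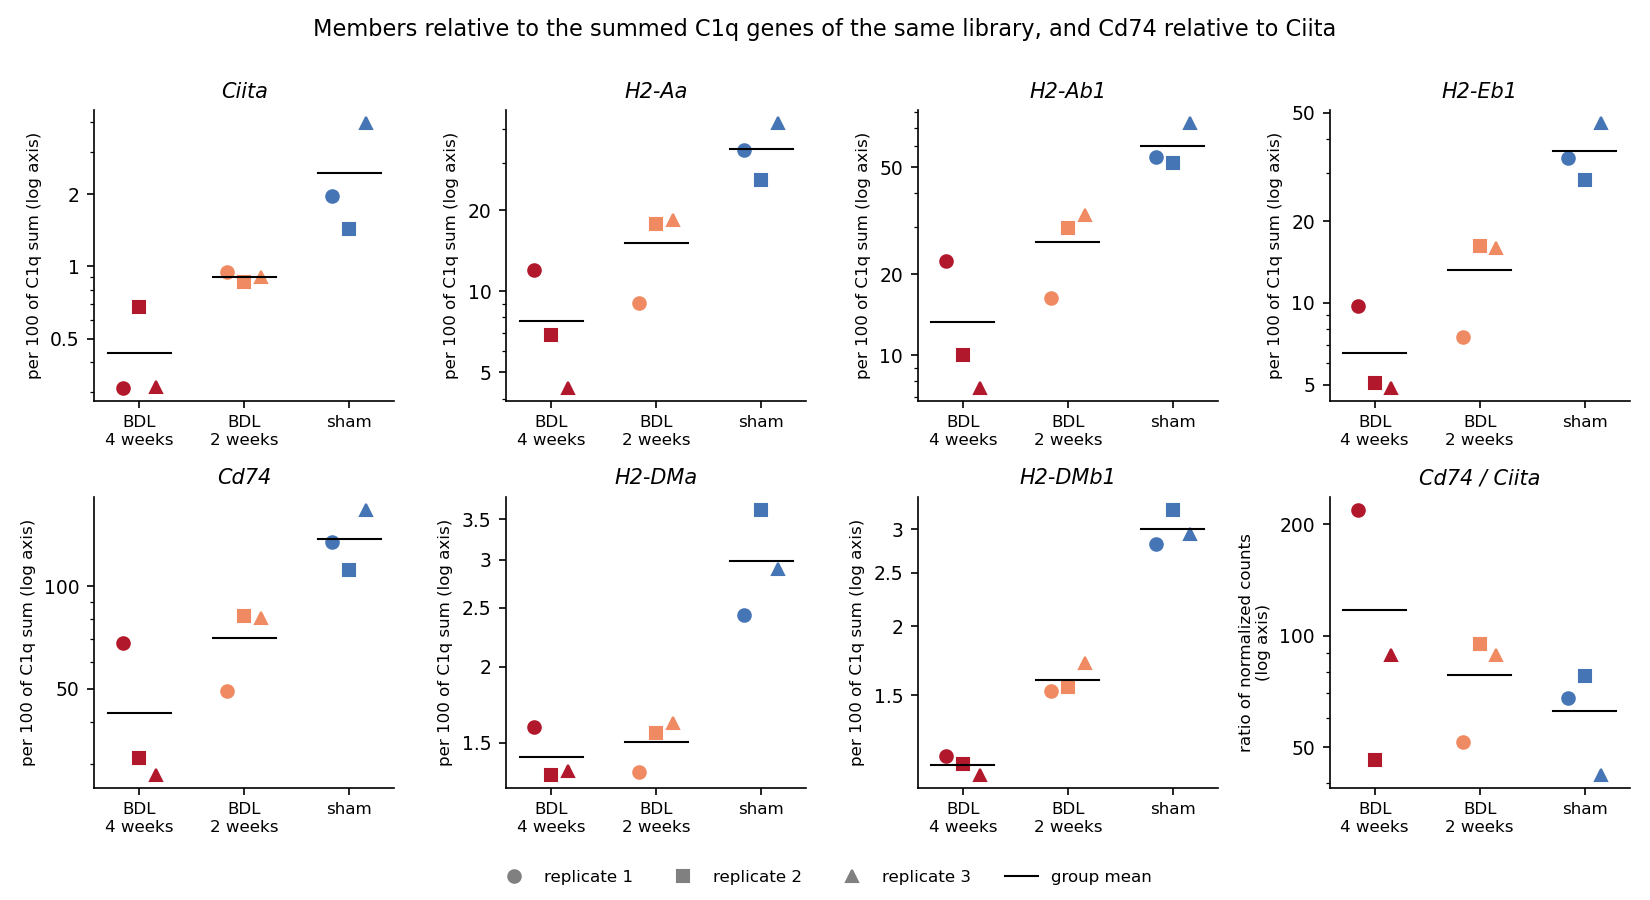
The 7 members per 100 normalized counts of the summed C1q genes in each library, and Cd74 per Ciita, on log axes (3 libraries per group, marker shape giving the replicate number, bars the group means). In the panels of all 7 members the BDL libraries lie below the sham libraries, and Cd74 per Ciita is highest in the first 4-week library, at 218.

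In that library, 4-week replicate 1, the class II genes were high for the group and Ciita was not. It held 14747 normalized counts of the 6 class II members summed, against 3901 and 2590 in 4-week replicates 2 and 3, while its Ciita, at 40.0, lay between theirs. Cd74 per Ciita was 218, 46.2 and 88.9 at 4 weeks, 51.6, 95.03 and 89.0 at 2 weeks and 68.1, 77.8 and 42.2 in sham, so that the other libraries of all groups overlapped. The same library had the highest macrophage sum at 4 weeks, 28391, against 14656 and 11206, and the highest count of Ptprc, the gene of the leukocyte marker CD45, at 2152 against 894 and 753. The part of leukocytes in the class II level of that library was not tested.

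Over all 9 libraries the chains of I-A and the beta chain of I-E had the most similar profiles. As a measure of likeness, log2 values were centred on each gene's mean and the root mean square difference between profiles was taken. The 6 pairs of Ciita with another member differed by 0.600 to 0.805 (median 0.651), and the 15 pairs among the other members by 0.123, for H2-Aa with H2-Ab1, to 0.720, for H2-Eb1 with H2-DMa (median 0.431). H2-DMa and H2-DMb1 differed from each other by 0.217, and Cd74 from H2-Aa, H2-Ab1 and H2-Eb1 by 0.219 to 0.322. H2-DMa lay farther from H2-Aa (0.670), H2-Ab1 (0.690) and H2-Eb1 than these lay from Ciita. Of 7665 genes ranked, the nearest to Ciita included Cd4 (0.323), the interferon-inducible GTPase gene Gbp3 (0.424), the leukocyte receptor gene Lilra5 (0.445) and the oligoadenylate synthetase gene Oas1a (0.483). Cd4, the nearest, had 24.3, 21.5 and 6.15 normalized counts at 4 weeks, 39.5, 27.4 and 38.6 at 2 weeks and 115, 131 and 154 in sham. Nearest to the mean profile of the other 6 members were Dnase1l3 (0.382), the interferon-inducible GTPase genes Irgm1 (0.397) and Gbp8 (0.416), Pira2 (0.427), which encodes a paired immunoglobulin-like receptor, and Irf7 (0.433). These profiles share library depth and composition, and Gbp, Pir and Oas genes have close relatives among which reads can be split.

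The members' positions set a few limits on their counts. On GRCm38, the assembly also called mm10, Ciita (ENSMUSG00000022504) lies at chr16:10480059-10528418 on the plus strand. H2-Ab1 (chr17:34257689-34269419, plus), H2-Aa (chr17:34282744-34287823, minus) and H2-Eb1 (chr17:34305867-34316674, plus) lie side by side in the MHC, with H2-DMa (chr17:34119541-34139101, plus) and H2-DMb1 (chr17:34153072-34160230, plus) nearby, and Cd74 lies outside it at chr18:60803848-60812652 on the plus strand. Whether counting used strand is not given in the sources used here, so reads of overlapping genes cannot be told apart. Ciita shares 329 exon bases with Dexi on the opposite strand, which had 10.2 to 30.6 normalized counts over the 9 libraries. H2-Eb1 is overlapped by Gm20513, an antisense gene on the opposite strand whose level was not analysed here, so its values are uncertain to that extent. H2-DMa shares 360 exon bases with Brd2, at 912 to 1697 normalized counts, so its values are less certain. H2-DMb1 has the near-identical neighbour H2-DMb2, which had 4.92 to 18.3 normalized counts, and the split of reads between these is uncertain.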

How the data were processed

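Per the labels' protocols, sorted cells went directly into TRIzol and libraries were made from ribosome-depleted total RNA. The programs named, per the submitters' processing notes, include DESeq2 (version 1.22.1), StringTie (version 1.3.3b), HISAT2 (version 2.1.0) and Trim Galore (version 0.5.0), on mm10. No source used here states the settings, the gene annotation or whether strand entered the counting.

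The authors' deposited table holds a normalized signal per gene, that is counts divided by 1 size factor per library. Divided by the value of 1 read, 100.0% of 197424 values were whole within 0.001. The value of 1 read was 5.26 normalized counts for sham replicate 2 and 0.589 to 1.23 elsewhere. Counting error covers reads only, which carry no molecular identifiers.

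Values on the scale log2(normalized count + 1) were tested in limma (version 3.58.1, R 4.3.3), with 3 group means over 9 libraries, 6 residual degrees of freedom, an empirical Bayes trend and two-sided p-values, Benjamini-Hochberg adjusted over 11809 genes whose mean reached 10 normalized counts. The 10127 others were left out. The pseudocount understates changes of low genes. Genes with an adjusted p below 0.05 passed. The procedure was tested on simulated data. Replicate pairs differed beyond sampling noise, so none was a repeat deposit.

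Alternatives were pseudocounts of 0.5 and 5, a minimum mean of 50 or none, TMM scaling, only the groups compared, the replicate number as a block, library quality weights, edgeR 4.0.16 (quasi-likelihood) and DESeq2 1.42.0 on the recovered reads, leaving out each library, and leaving out sham replicate 2 with 4-week replicate 1. The C1q covariate, the covariate of 12 macrophage markers and all ratios were added after seeing the data. The count tests called 167 genes (edgeR) and 573 (DESeq2) at 4 weeks against sham, where limma called 142.

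Members, pathway lists and marker lists were chosen with earlier results of these data known. All members are named, and of each list those that passed and up to 3 with the highest mean. Some marker genes below the mean required for testing are named as well. Genes of 2 lists (interferon-gamma route, B cell) and of the likeness ranking that are not reported here were left out of the lists, their counts and the plots. The profiles ranked for likeness were of genes with a mean of at least 50. GENCODE M21 (GRCm38), which gave coordinates and exon lengths, held 21894 of the table's gene IDs.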

Additional observations from a re-analysis of the deposited data

How the results depend on the processing

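Of the 7 members, 3 passed as lower at 4 weeks against sham, and 142 of all genes passed. With only the groups compared the counts were 1 member and 53 genes, with library quality weights 7 and 1608, in DESeq2 7 and 573, without both sham replicate 2 and 4-week replicate 1 7 and 457, with the C1q covariate, added after seeing the data, 5 and 371, and with that of the 12 macrophage markers, also added then, 0 and 73. At 2 weeks against sham, where 0 members and 2 genes passed, quality weights gave 2 and 1112, DESeq2 1 and 211, leaving out both libraries 1 and 175, the C1q covariate 0 and 35, that of the 12 markers 0 and 20 and only the groups compared 0 and 1. Between 4 and 2 weeks, where 0 passed, quality weights gave 6 members and 349 genes, DESeq2 1 and 76, leaving out both libraries 5 and 213, the C1q covariate 0 and 2, and a minimum mean of 50 and TMM scaling 0 and 1 each. Leaving out 1 library gave 1 to 6 members and 9 to 173 genes at 4 weeks against sham, 0 members and 0 to 14 genes at 2 weeks, and 0 members and 0 to 2 genes between the times. The lowest of these, 9 genes, was without 4-week replicate 3, and 6 members passed without 4-week replicate 1. Fewer samples enter the leave-one-out fits. For the other settings the cause was not tested.

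Deviations of same-numbered libraries from their group means correlated at -0.445 to 0.228. Differently numbered libraries were not set beside them, so whether replicate numbers pair the samples was not tested. With the replicate number as a block, 1 member and 84 genes passed at 4 weeks against sham, and H2-Eb1 had an adjusted p of 0.0502. TMM scaling shifted the median log2 fold change of all genes between 4 and 2 weeks by -0.11. Directions turned between 4 and 2 weeks only, under the covariates: H2-DMa was 0.019 with C1q (adjusted p = 0.993), and with the 12 markers H2-DMa was 0.86 (0.405), H2-DMb1 0.38 (0.656) and Cd74 0.10 (0.962). At 4 weeks against sham the number of the 22 alternatives in which a member passed was 21 for Ciita, 15 for H2-Eb1, 10 for H2-Aa, 7 for H2-Ab1, 5 for H2-DMb1, 4 for Cd74 and 3 for H2-DMa. Depth limits low genes most in sham replicate 2, where 3 reads, the number that a count of 0 allows, are 15.8 normalized counts.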

Other observations

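The invariant chain was set against the I-A beta chain in each library. Cd74 per H2-Ab1, a ratio chosen after the values were seen, was 3.05, 3.13 and 3.68 at 4 weeks, 3.01, 2.76 and 2.42 at 2 weeks and 2.46, 2.16 and 2.30 in sham. The 4-week libraries lay above those of sham and of 2 weeks, and the 2-week and sham libraries overlapped. Two-sided exact permutation tests gave p = 0.1 at 4 weeks against sham and between 4 and 2 weeks, the smallest that 3 against 3 can give, and p = 0.2 at 2 weeks against sham. Adjusted over the 15 tests of ratios to H2-Ab1 these were 0.375 and 0.429. H2-Ab1 itself was low at 4 weeks. Its log2 fold change was reached by 0.466% of tested genes against sham and by 0.669% against 2 weeks. Nearly any gene therefore tends to be higher relative to it, and the share of all tested genes was not counted.

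Among the endosomal genes, Cd63, a tetraspanin of late endosomes, averaged 652 ± 50.2 normalized counts at 4 weeks, 334 ± 65.4 at 2 weeks and 244 ± 102 in sham (SD, n = 3 each), and Ctsl, a cathepsin, averaged 2121 ± 705, 1715 ± 131 and 937 ± 272. Neither passed at 4 weeks against sham, with adjusted p-values of 0.0651 and 0.0978 in limma, and both were chosen here after their values were seen. Irf4, a factor of B and dendritic cells, averaged 18.5 ± 3.48 at 4 weeks, 28.1 ± 12.6 at 2 weeks and 60.0 ± 17.2 in sham, with an adjusted p of 0.0822 at 4 weeks against sham in limma.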
